A study of Ostrinia furnacalis with 9 samples.

Results

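In heads of Asian corn borer larvae (Ostrinia furnacalis), 1074 short stretches of the genome carried a called peak of H3K9me3 and a called peak of H3K27me3 at each of 3 stages. They were found by merging the peaks of 6 deposited lists, 1 list for each mark at non-diapause, pre-diapause and diapause, wherever peaks shared at least 1 bp. Of the 10958 merged places, the single NC_ sequence left out, 1205 (11.0%) had a peak in all 6 lists, and the 1074 with a merged width of at most 2000 bp are described here. They made up 9.80% of all places (exact 95% interval 9.25–10.4). The places were chosen by the deposited peak calls and their widths, so their presence and strength are given as descriptions, without a test.

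The larvae were from animals collected in a corn field and reared on artificial diet, with the stock kept at 27 °C under 16 h light and 8 h dark. The labels name no other rearing for the non-diapause larvae. Pre-diapause larvae had spent 20 days, from the moult to the fourth instar, at 20 °C under 12 h light and 12 h dark, and diapause larvae at least 30 days. Stage and rearing temperature and light therefore cannot be told apart here. How many heads went into a library is not given, and each group had 1 list, so the spread between replicates could not be measured for any comparison of stages. Intervals are exact binomial 95% intervals, which cover counting error only and treat neighbouring places as independent.

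H3K9me3 is a mark of constitutive heterochromatin, where it is bound by HP1 proteins and keeps repeats and transposons silent. H3K27me3 is laid down by the Polycomb repressive complex PRC2 and is known from genes held silent during development. The marks are usually described on separate parts of the genome, and broad domains are typical of both. Genes were not placed on these scaffolds, and base sequences were not analysed here, so each place is named by its scaffold and position as in the deposited lists, written 1-based.

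The 6 peaks of a place nearly always shared bases. Exactly 1 peak from each list was present in 1058 of the 1074 places (98.5%, 97.6–99.1). At 1064 places (99.1%, 98.3–99.6) at least 1 base lay inside a peak of every list. The limit on the merged width favours such overlap, so the alignment is in part set by the rule. Merged widths ran from 366 to 1995 bp with a median of 883 bp. The bases common to all 6 lists had a median length of 402 bp and made up a median of 55.9% of the merged width.

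The centres of the H3K9me3 and H3K27me3 peaks of a stage were close together. The median distance between them was 25.5 bp at non-diapause (quartiles 10.5 and 54.8 bp), 28.0 bp at pre-diapause (12.0 and 66.5 bp) and 39.8 bp in diapause heads (18.0 and 91.0 bp), and 30.0 bp over the 3 stages pooled. Centres lay within 100 bp at 86.9% (non-diapause), 82.4% (pre-diapause) and 76.6% (diapause) of the places. Between stages, the same mark was shifted by similar amounts. H3K9me3 centres differed by a median of 31.0 bp between pre-diapause and non-diapause and by 42.5 bp between diapause and non-diapause. H3K27me3 centres differed by 29.5 and 36.5 bp in these comparisons. The lists give no summits, so a centre here is the midpoint of a peak.

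How the peaks of both marks were nested differed between the stages' lists. At non-diapause the H3K27me3 peak lay inside the H3K9me3 peak at 500 places (46.6%, 43.5–49.6), and the reverse held at 137 (12.8%, 10.8–14.9). At pre-diapause these numbers were 310 and 337, and at diapause 235 and 330. The H3K9me3 peak was the wider at 70.5% (non-diapause), 49.1% (pre-diapause) and 45.0% (diapause) of the places. Staggered peaks made up most of the rest, and peaks of a stage that shared no base were found at 1, 2 and 6 places in stage order.

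Peaks at these places were widest at pre-diapause by their median. Median peak widths were 656, 724 and 567 bp in the H3K9me3 lists, stages in order, and 571, 728 and 578 bp in the H3K27me3 lists. Both diapause peaks were narrower than all 4 earlier peaks at 265 places (24.7%, 22.1–27.4), and wider than all 4 at 36 (3.35%, 2.36–4.61). At 13 places both diapause peaks were less than 0.5 times as wide as each earlier peak. The depth of the libraries is unknown, and the part of depth in these widths was not tested.

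**Figure D1:**
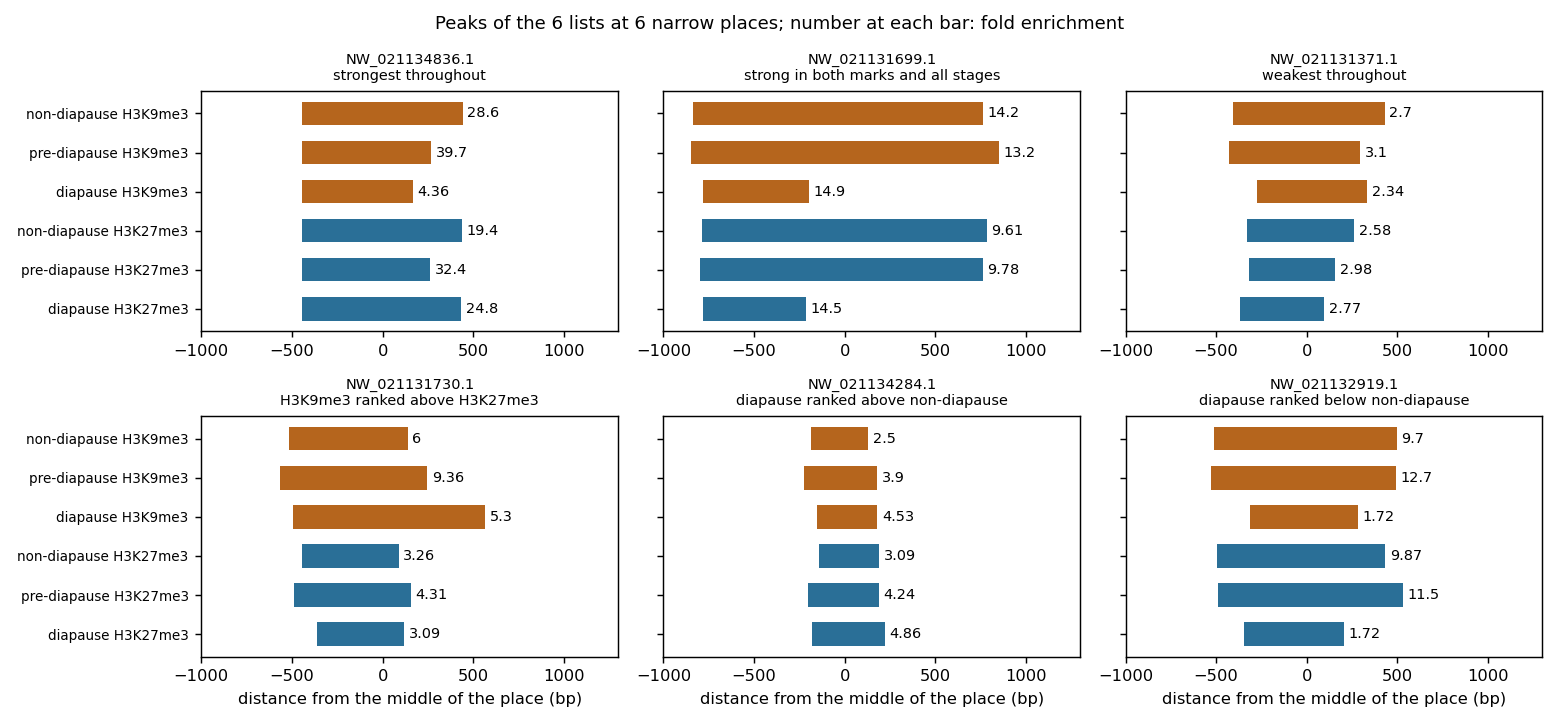
Peaks of the 6 lists at 6 of the places, drawn as bars over distance from the middle of the merged place in bp, with the deposited fold enrichment beside each bar (brown, H3K9me3; blue, H3K27me3). On scaffold NW_021131699.1 both diapause peaks cover only the left part of the place, and on NW_021132919.1 both diapause folds are 1.72 while the 4 earlier folds are 9.70 or more.

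The peaks at these places were among the stronger ones of every list. Strength is given as the percentile of a peak in its own list by the authors' −log10 q, where 100 is the strongest. Median percentiles for the 3 stages in order were 73.3, 78.4 and 70.1 in H3K9me3 and 67.9, 80.2 and 75.4 in H3K27me3. Median folds were 4.08, 4.55 and 2.97 for H3K9me3, against 3.23, 3.17 and 2.43 for the other peaks of the same lists. For H3K27me3 they were 3.74, 4.26 and 3.49, against 3.09, 3.18 and 2.88. The spread was wide, with members from percentile 0.564 upward in the diapause H3K27me3 list and from 5.08 upward in the pre-diapause H3K27me3 list. Fold is the authors' enrichment within a list and is not on a scale shared between lists.

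**Figure D2:**
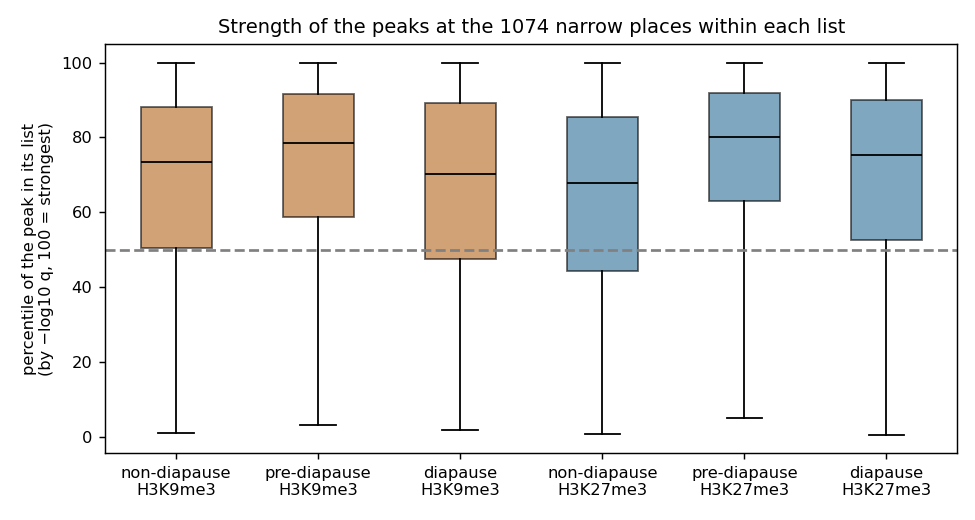
Percentile of the place's peak within each of the 6 lists (boxes, quartiles and median; whiskers, lowest and highest; n = 1074 places per box). The dashed line marks the middle of a list, and all 6 medians lie above it, between 67.9 and 80.2.

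Between 17.6 and 30.5% of the places reached the strongest 10% of a list, with a mean of 24.4% over the 6 lists. In the H3K9me3 lists 238, 301 and 251 places did so in stage order, or 22.2, 28.0 and 23.4%, where that part itself made up 9.95, 9.99 and 9.96% of the peaks off the NC_ sequence. In the H3K27me3 lists 189, 328 and 267 places did, or 17.6, 30.5 and 24.9%, where it made up 9.93, 9.99 and 9.97%. A place had to be called 6 times to be kept, so an excess of strong peaks follows in part from the rule.

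Seen from the lists, the strongest diapause peaks lay mostly at these places. They held 71.9% (66.9–76.6) of the strongest 10% of diapause H3K9me3 peaks and 70.3% (65.4–74.8) of the strongest 10% of diapause H3K27me3 peaks. In the strongest 10% of the earlier lists the share for H3K9me3 was 53.4% (non-diapause) and 41.7% (pre-diapause), and for H3K27me3 it was 50.7 and 50.2%. With each list off the NC_ sequence split into 10 equal parts, the share in the weakest part was at most 9.69%, the value for diapause H3K9me3. Over whole lists, the places took 24.0, 14.9 and 30.8% of H3K9me3 peaks and 28.7, 16.5 and 28.3% of H3K27me3 peaks in stage order. The pre-diapause lists are the longest, with 7225 and 6539 peaks off the NC_ sequence, so a fixed set of places is a smaller part of them.

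**Figure D3:**
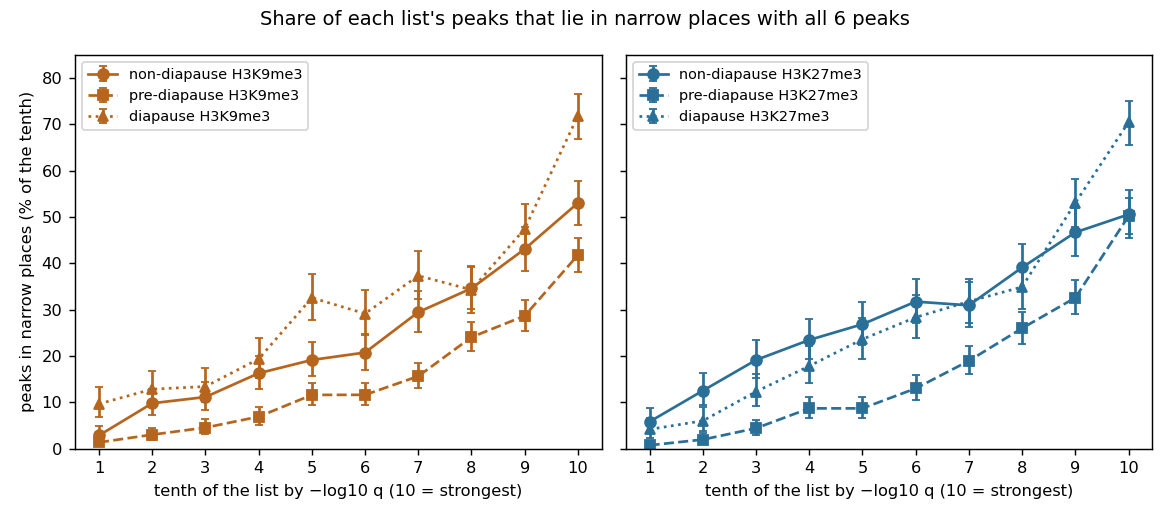
Percent of peaks that lie in the narrow places, for each list split into 10 equal parts by −log10 q (10 is the strongest), with exact 95% intervals; left, H3K9me3, right, H3K27me3. The share climbs towards the strong end in all 6 lists and is highest, 71.8 and 70.4%, in the strongest of the 10 parts of the diapause lists.

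The order of the places by fold was shared between the marks of a stage. Across the 1074 places Spearman's rank correlation between the H3K9me3 and H3K27me3 folds was 0.90 in non-diapause, 0.83 in pre-diapause and 0.70 in diapause heads. Between pre-diapause and non-diapause, the rank correlation was 0.81 for H3K9me3 and 0.84 for H3K27me3. Diapause stood apart from both earlier stages. The rank correlation between diapause and non-diapause was 0.35 for H3K9me3 and 0.59 for H3K27me3, and between diapause and pre-diapause it was 0.30 and 0.53. The diapause H3K9me3 list was thus nearer in order to the diapause list of the other mark than to its own mark at earlier stages. These are descriptions across places, not tests. The lists of a stage come from heads of that stage, and the sources used here do not state whether they were called against a shared input.

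Between the marks, and for H3K9me3 between diapause and non-diapause, the same order of values held in other sets of places. At the 131 places with all 6 peaks and a width over 2000 bp, the rank correlation between the marks was 0.96 in non-diapause, 0.94 in pre-diapause and 0.83 in diapause heads, and between diapause and non-diapause H3K9me3 it was 0.50. Over every place with a peak in both lists it was 0.91, 0.83 and 0.74 between the marks and 0.51 between diapause and non-diapause H3K9me3. With −log10 q in place of fold, the rank correlation at the narrow places was 0.85, 0.75 and 0.62 between the marks, and 0.50 for H3K9me3 between diapause and non-diapause. Without the places in the strongest 10% of any list, 561 remained. Their rank correlation of fold was 0.83, 0.73 and 0.61 between the marks, against 0.41 for H3K9me3 between diapause and non-diapause. For H3K27me3 between diapause and non-diapause the order varied. By fold its rank correlation was 0.56 at the wider places and 0.58 over every place, below the diapause value between the marks. It was above that value at the 561 places, 0.63 by fold, and at the narrow places by −log10 q, 0.69.

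**Figure D4:**
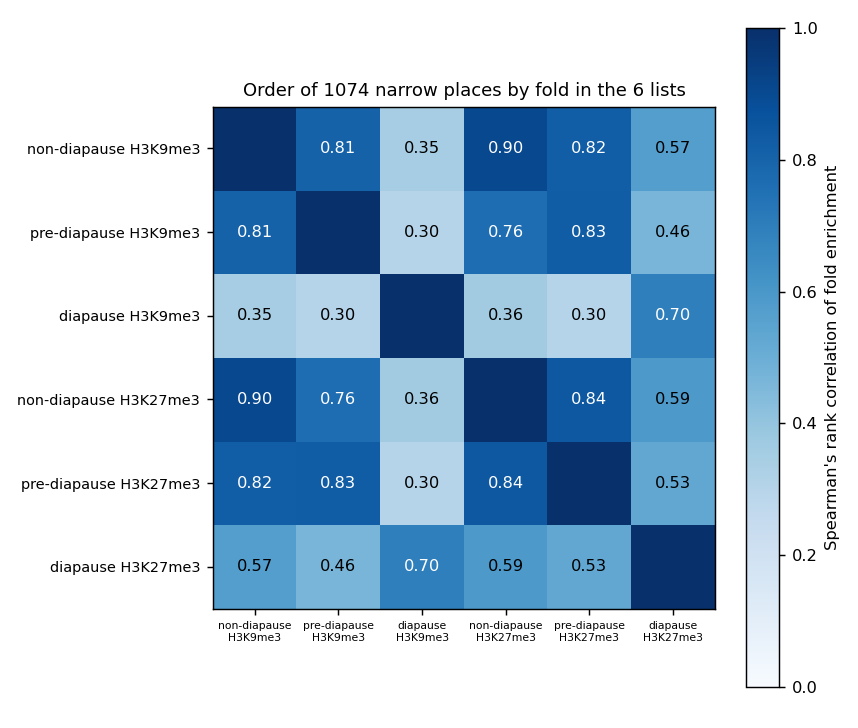
Spearman's rank correlation between lists for the deposited fold enrichment at the 1074 narrow places; rows and columns are the 6 lists. The diapause H3K9me3 row is the palest, with 0.30 to 0.36 against the 4 earlier lists and 0.70 against diapause H3K27me3.

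At diapause, narrower places had the higher folds. The rank correlation between merged width and fold was -0.39 in both diapause lists. In the 4 earlier lists it lay between -0.16 and -0.04. With −log10 q in place of fold it was weaker, -0.23 in the diapause H3K9me3 list and -0.16 in the diapause H3K27me3 list, and between 0.0014 and 0.13 in the earlier lists. Between the width of a list's own peak and its fold it was -0.12 and -0.16 in the diapause lists and between 0.0037 and 0.092 in the earlier ones. Among the 269 narrowest places, 366 to 608 bp, the median percentile was 83.1 in the diapause H3K9me3 list and 82.7 in the diapause H3K27me3 list. Among the 269 widest, 1189 to 1995 bp, it was 64.0 and 69.8. In the pre-diapause lists the 269 widest had the higher median percentile, 83.4 against 73.4 in the narrowest for H3K9me3 and 82.9 against 79.9 for H3K27me3. The merged width is set by all 6 peaks, so it is not independent of how strongly and how far each list was called.

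**Figure D5:**
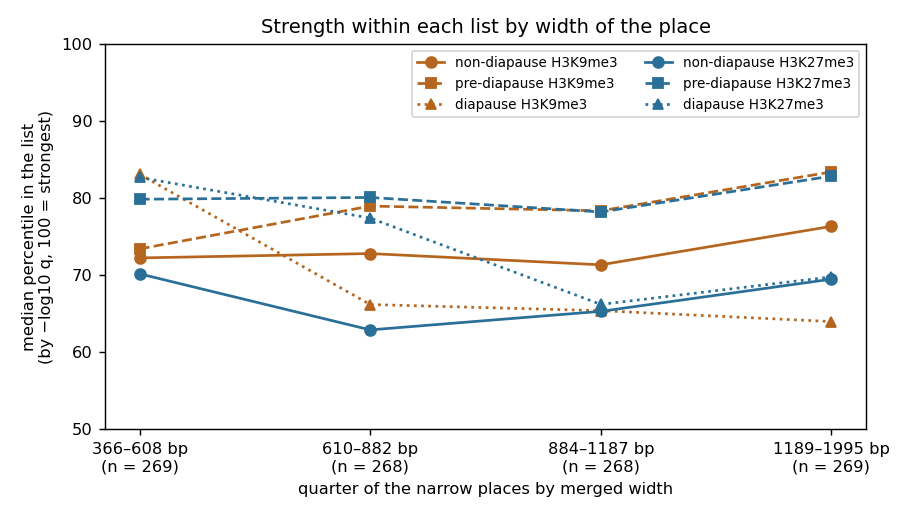
Median percentile of the peaks within each list (100 is the strongest; axis from 50) for the narrow places split into 4 equal parts by merged width. The dotted diapause lines start at 83.1 and 82.7 in the narrowest part and lie at 64.0 and 69.8 in the widest.

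A set of 77 places lay in the strongest 10% of all 6 lists, 7.17% (5.70–8.88), on 74 scaffolds. Of the 1205 places with all 6 peaks, wide ones included, 93 (7.72%) did so, a share that the 1074 narrow places largely set. At the other end 561 places (52.2%) reached the strongest 10% of no list, 490 (45.6%) lay above the middle of every list and 39 (3.63%) below the middle of every list. The 77 strongest had a median width of 833 bp, and their common bases made up a median of 68.5% of the place. At the 39 weakest the median width was 992 bp and the common bases made up 36.9%.

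Ranked by the lowest percentile over the 6 lists, the leading place was NW_021134836.1 1–884, which opens its scaffold. All 6 peaks there began at base 1 and ended between bases 609 and 884, and the diapause H3K9me3 peak was the shortest. It ranked first of the 1074 places in 5 lists and second in the diapause H3K9me3 list.

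NW_021136407.1 76408–76981 came second, with H3K9me3 folds of 13.2, 15.1 and 3.01 from non-diapause to diapause, and H3K27me3 folds of 9.13, 12.4 and 16.5. The low diapause H3K9me3 fold was still the eighth strongest call among the places in that list, with a −log10 q of 46.7. NW_021134442.1 107147–107803 had H3K9me3 folds of 19.5, 26.2 and 3.25 and H3K27me3 folds of 13.7, 17.0 and 6.61. At NW_021131592.1 230452–231088 they were 17.9, 13.5 and 3.80, and 15.2, 14.7 and 5.25. At NW_021131193.1 959066–960086 they were 19.3, 15.5 and 3.88, and 13.9, 14.1 and 5.48. At these last 3 places both diapause folds were below every earlier fold, in lists with lower median folds, and all their peaks were above percentile 99.5 of their lists.

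NW_021131699.1 18940–20638 differed from these in that in each mark the diapause fold was the highest of the 3 stages. It had H3K9me3 folds of 14.2, 13.2 and 14.9 and H3K27me3 folds of 9.61, 9.78 and 14.5. Its diapause peaks ended at 19591 and 19577, while the earlier peaks ran on to 20552 or beyond. NW_021132339.1 3–530, again at the start of a scaffold, had folds of 11.4, 16.7 and 6.41 and of 9.04, 13.1 and 16.3, with 512 of its 528 bp common to all lists. The remaining 3 were NW_021134443.1 97597–98229, NW_021137592.1 42912–44204 and NW_021132601.1 1710–2509. On NW_021137592.1 the pre-diapause and diapause H3K27me3 peaks began at 43012 and 42912, and the other 4 between 43633 and 43669.

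The weakest place throughout was NW_021131371.1 1810549–1811411, at percentiles between 9.91 and 24.6. Its folds were 2.70, 3.10 and 2.34 for H3K9me3 and 2.58, 2.98 and 2.77 for H3K27me3. NW_021134082.1 125237–127103, second weakest, is a chain of 1867 bp in which no base was common to the 6 lists, with folds from 1.59 to 2.29. The third, NW_021130845.1 790554–791381, had folds from 2.73 to 3.46 and 587 common bases. Weak members thus included both well-aligned peaks and loose chains. Among the 10 places with no common base the median merged width was 1622 bp.

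Some places ranked far higher in one mark than in the other at all stages. NW_021131730.1 6892–8022 ranked 214, 60 and 72 of 1074 in the H3K9me3 lists and 905, 542 and 804 in the H3K27me3 lists, where 1 is the strongest by −log10 q. Its folds were between 5.30 and 9.36 for H3K9me3 and between 3.09 and 4.31 for H3K27me3. NW_021132278.1 536968–538020 ranked 223, 205 and 125 in H3K9me3 and 875, 734 and 652 in H3K27me3. NW_021133887.1 3575–4494 ranked 420, 281 and 138 in H3K9me3 and 853, 877 and 744 in H3K27me3. At these 3 places the 3 H3K9me3 ranks and the 3 H3K27me3 ranks did not overlap, as picking the largest gaps favours.

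In the other direction the gaps were smaller. NW_021137830.1 273140–273798 ranked 1031, 944 and 972 in H3K9me3 and 782, 332 and 316 in H3K27me3, and NW_021135290.1 454405–455120 ranked 836, 728 and 948 against 404, 356 and 363. NW_021131691.1 302334–304289 ranked 314, 382 and 991 in H3K9me3 and 129, 155 and 95 in H3K27me3, and its diapause H3K9me3 fold was 1.54. Over all places the mean rank in the 3 H3K9me3 lists and that in the 3 H3K27me3 lists differed by over 500 positions at 6 places, 5 with H3K9me3 ahead and 1 with H3K27me3 ahead.

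Gaps of over 500 positions were more numerous between diapause and non-diapause than between the marks. Each mark's mean is taken over more lists than each stage's, so these counts are not on a like footing. The mean rank in both diapause lists was over 500 positions behind that in both non-diapause lists at 40 places, and over 500 positions ahead at 12. At the 40 places the median fold at diapause was 1.96 for H3K9me3 and 2.25 for H3K27me3, against 5.41 and 4.85 at non-diapause. Their pre-diapause medians were 6.31 and 5.93. Their median width was 1180 bp, against 667 bp at the 12 and 883 bp at all 1074. At the 12 places the median fold at diapause was 4.13 for H3K9me3 and 4.01 for H3K27me3, against 2.70 and 2.43 at non-diapause. Over all 1074 places the medians were 2.97 and 3.49 at diapause, against 4.08 and 3.74 at non-diapause. The ranks that picked the 40 and the 12 come from the same peaks. The direction of their fold differences thus follows from the choice.

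NW_021132919.1 171368–172427 stood lowest at diapause by this measure. Its folds were 9.70, 12.7 and 1.72 for H3K9me3 and 9.87, 11.5 and 1.72 for H3K27me3. Its diapause rank was 733 in H3K9me3 and 884 in H3K27me3, against 39 and 16 at non-diapause. NW_021133301.1 87056–88180 had folds of 7.02, 6.52 and 2.08, and of 6.23, 7.84 and 2.63. NW_021130455.1 1469194–1470520 had folds of 5.64, 4.41 and 1.64, and of 4.84, 4.93 and 2.11. All 3 kept a called diapause peak of both marks, with −log10 q between 3.51 and 6.50.

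Higher at diapause stood NW_021134284.1 86771–87214, with folds of 2.50, 3.90 and 4.53 for H3K9me3 and 3.09, 4.24 and 4.86 for H3K27me3. It ranked 245 and 251 in the diapause lists, against 1051 and 655 at non-diapause. NW_021132513.1 259494–260173 had folds of 2.67, 3.20 and 3.66, and of 2.34, 3.04 and 3.41. NW_021131399.1 502196–502749 had folds of 3.68, 4.14 and 5.16, and of 3.32, 3.98 and 5.69. Pre-diapause folds lay between those of the other stages for both marks at all 3 places. Picking the largest gaps between diapause and non-diapause ranks favours this. By −log10 q, the pre-diapause H3K27me3 peak of NW_021134284.1, at 14.4, was above the diapause one, at 13.9.

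Places strong early were more often strong at diapause than the 1074 as a whole, though not always. Of 145 places in the strongest 10% of all 4 non-diapause and pre-diapause lists, 77 (53.1%, 44.6–61.4) were also in that of both diapause lists. Over all 1074 places the share in that of both diapause lists was 15.5% (13.3–17.8). For 27 of the 145 the diapause H3K27me3 peak alone was in the strongest 10%, for 7 the H3K9me3 peak alone, and for 34 (23.4%, 16.8–31.2) neither. Those 34 were wide for this set, with a median of 1358 bp, and had median diapause folds of 2.05 and 2.34 for H3K9me3 and H3K27me3. They were picked for lacking a strong diapause call, which favours low diapause folds. In turn 166 places were in the strongest 10% of both diapause lists, and 22 of them (13.3%, 8.50–19.4) were in that of none of the 4 earlier lists.

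Just inside the width limit lay NW_021130747.1 22258–24252 with 1995 bp, NW_021131437.1 1110170–1112163 with 1994 bp and NW_021136890.1 32152–34140 with 1989 bp. The first is a long peak of nearly the same extent in every list, with 1814 common bases, the most of any member. The second is made of 7 peaks with 315 common bases, and the third had none. Long common stretches were also found at NW_021131202.1 435193–437097, with 1807 bases and folds from 4.99 to 8.08, and at NW_021135712.1 83500–85480, with 1753 bases and folds from 3.56 to 5.50. Just outside lay NW_021132848.1 335907–337909 with 2003 bp, NW_021137606.1 312–2316 with 2005 bp and NW_021137659.1 113723–115731 with 2009 bp, and their common bases numbered 1090, 1208 and 1183. The narrowest members were NW_021132635.1 179671–180036 with 366 bp, NW_021136100.1 381250–381627 with 378 bp and NW_021134934.1 59230–59611 with 382 bp. The first of these was at percentile 94.4 or higher in every list, with folds from 3.31 to 5.21.

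Of places no wider than 2000 bp, 968 missed the set by 1 list. The missing list was diapause H3K9me3 at 580 of them (59.9%, 56.8–63.0), diapause H3K27me3 at 177, non-diapause H3K27me3 at 139, pre-diapause H3K9me3 at 36, non-diapause H3K9me3 at 30 and pre-diapause H3K27me3 at 6. The diapause H3K9me3 list is the shortest, with 3504 peaks off the NC_ sequence, and the non-diapause and diapause H3K27me3 lists, with 3755 and 3812, are not much longer. The part of list length in these misses was not tested.

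The 611 places with both marks at the earlier stages and neither at diapause were weaker before diapause than the narrow places with all 6 peaks. The narrow places had to be called at diapause as well, so this difference follows in part from the rule. No width limit was applied to the 611. The 1074 places had median percentiles of 73.3 and 78.4 in the non-diapause and pre-diapause H3K9me3 lists, against 56.2 and 64.7 at the 611. In the H3K27me3 lists they had 67.9 and 80.2, against 57.1 and 68.6. The marks' centres were about as close, 25.5 against 30.5 bp at non-diapause and 28.0 against 31.5 bp at pre-diapause. Against the 131 wider places with all 6 peaks, the narrow ones had higher median folds, 4.08 against 3.46 in the non-diapause H3K9me3 list and 2.97 against 2.02 in the diapause one. By percentile the order was the other way in 5 of the 6 lists, with medians of 73.3 against 83.3, 78.4 against 92.7 and 70.1 against 75.8 for H3K9me3 from non-diapause to diapause, and 67.9 against 72.6, 80.2 against 88.4 and 75.4 against 74.6 for H3K27me3. The marks' centres were 39.8 against 305 bp apart at diapause, a distance that the width limit between these classes bounds. At the remaining 9142 places, where a stage had a peak of both marks, the median distance was 29.5, 37.75 and 42.25 bp in stage order. Close centres were therefore not particular to the narrow places. These differences were not tested.

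The places were scattered over 585 of the 1418 scaffolds with any place (41.3%, 38.7–43.9), and 330 scaffolds held a single one. Scaffolds are given by the span to their last peak. By span, the narrow places made up between 8.99% of all places, at 200 to 500 kb (8.05–10.0), and 11.2%, at 50 to 200 kb (9.68–12.9). On scaffolds with a span up to 50 kb they were 10.4% (8.24–12.9), and over 1 Mb 9.46% (8.32–10.7). Within 1000 bp of the first base of a scaffold began 25 of them (2.33%, 1.51–3.42), against 228 (2.49%, 2.18–2.83) of the 9142 places that were neither in all 6 lists nor marked by both at the earlier stages and by neither at diapause. The scaffolds of these 25 had a median span of 1.56 kb, and 7 of the 25 were among the 77 places strongest in all lists. Where such a place holds the last peak of its scaffold, the span is the end of the place itself. The low median span is thus in part set by the choice, and scaffold lengths are not given by it. A neighbouring place of any kind lay within 10 kb at 41.3% (38.4–44.3) of the 1074 places, against 48.8% (47.8–49.9) of those 9142. The share was similar, 42.1% (38.1–46.1), at the 611 places with both marks earlier and neither at diapause. At the 131 wider places with all 6 peaks it was 37.4% (29.1–46.3), so it is not particular to the narrow places.

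Another narrow place with all 6 peaks was within 10 kb at 71 of the 1074 places (6.61%, 5.20–8.27). The narrow places were only 9.80% of all places, and no set of like number was compared. The share therefore does not show that they lie apart from each other. The median gap, where a scaffold held more than 1, was 85.3 kb. The scaffold with the most was NW_021131371.1, with 10 of its 61 places in a stretch of 1.73 Mb. NW_021135154.1 had 8 of 259, and NW_021133984.1 had 7 of 21 within 0.432 Mb. The closest pairs were 613 bp apart on NW_021134470.1, 620 bp apart on NW_021134484.1 and 657 bp apart on NW_021133289.1. On NW_021134470.1 the places at 60766–62201 and 62815–64424 were both weak, with folds of 1.36 to 1.78 and of 1.48 to 2.13. For the 36 pairs within 10 kb, the rank correlation between the mean fold ranks of both places was 0.45, and for the 230 pairs within 100 kb it was 0.07.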

How the data were processed

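Chromatin from larval heads was cross-linked with formaldehyde, immunoprecipitated and sequenced, per the labels' protocols. The submitters' processing notes name deepTools, ChIPseeker, MACS2, Picard and Bowtie2 but no version or setting. The genome build, and whether libraries were pooled, are not given in the sources used here. The 3 input samples were not used here. The 6 deposited lists have 9 columns and no header and were read as broad-peak tables. The deposited fold is the authors' ratio of a library to its background over the peak. The deposited p-values and q-values, both as −log10, come from the authors' peak caller, and the deposited score is 10 times the −log10 q, cut to a whole number. The smallest −log10 q was 2.01. Read totals, and so depth, are unknown, and a place without a peak is not shown to lack the mark.

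Positions were made 1-based. Peaks sharing at least 1 bp were merged. Where a list had several peaks in a place, that of highest −log10 q gave its values. Percentiles were taken over all peaks of a list. Merging and distances were checked on simulated data. With 1 list a group no test was made. Alternatives were a −log10 q of at least 3, an overlap of 50% of the shorter peak, lists of equal length and a width up to 1500 bp. Places were named by rank rules for strength, mark, stage, width, common bases and position. The members, rules and lists were chosen with earlier results of these data known. The splits by width and by strength, the 34 places strong before diapause and not at diapause and the rank gaps over 500 were chosen after their values were seen. The gene table places 0 of 17154 genes on a named sequence, so planned gene lists were not analysed here. Computation used scipy 1.17.1, pandas 2.3.3 and numpy 2.4.6 under Python 3.11.15.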

Additional observations from a re-analysis of the deposited data

Results flagged for a closer look

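The single NC_ sequence, which was left out of every count above, also held signal: 12 peaks lay on it over the 6 lists, with at least 1 in each. The highest fold on it was, from non-diapause to diapause, 6.26, 5.62 and 10.5 in the H3K9me3 lists and 4.46, 4.97 and 11.4 in the H3K27me3 lists. No other value met the rules for a closer look, since no group holds more than 1 list.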

How the results depend on the processing

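No paired analysis was possible because each mark and stage has 1 list. In all, 15 results were recomputed under 4 other settings. The rank correlations kept their sign, as did the difference in percentile from places with both marks earlier and neither at diapause. That difference was 13.3 points as deposited, 8.91 with lists of equal length and between 12.9 and 14.8 under the other settings. The remaining results are counts, shares or medians, which have no direction to change. The number of places was 966 with −log10 q of at least 3, 1074 with an overlap of 50% of the shorter peak, 792 with lists of equal length and 952 with a width up to 1500 bp. The last of these lowered the median merged width to 809.5 bp and the median distance between the centres of the marks to 28.0 bp, and brought the share with a base common to all 6 lists to 99.6%, all beyond their counting intervals. Lists of equal length lowered the centre distance to 27.0 bp. Every rank correlation recomputed stayed within 0.1 of its value as deposited. Depth is unknown, so faint peaks and the absence of a mark cannot be judged.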
